A study of Homo sapiens with 4 samples.

Results

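The noncollagen matrix genes described here encode large secreted glycoproteins: tenascin C (TNC), thrombospondin 1 (THBS1), fibronectin (FN1), fibrillin 1 (FBN1), the laminin chains LAMA5, LAMB1 and LAMC1, the nidogens NID1 and NID2, and perlecan (HSPG2). They were taken by symbol, and all 10 were found among the 61541 gene rows of the count files. The symbols had been chosen with the difference between nanoparticle and PBS libraries already known, so their values in that comparison, and any call made on them, are given as a description and not as a test. H1299, an established human line from a lung carcinoma, was grown in Dulbecco's modified Eagle medium with fetal bovine serum, and its polyadenylated RNA was sequenced. There were 2 libraries of cells treated with ginseng nanoparticles and 2 of cells that received phosphate-buffered saline (PBS). The labels give no dose, exposure time or plant part, and groups follow the treatment label, although the nanoparticle titles include the word control too. Nothing in the labels says that replicates came from separate cultures, and p-values therefore rest on library-to-library spread that may be purely technical. The study asked about cell migration, for which matrix proteins are the substrate.

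The extracellular matrix that these genes build has a basement membrane part and an interstitial part. In the basement membrane, laminins assemble from an alpha, a beta and a gamma chain and polymerise, and nidogens and the heparan sulfate proteoglycan perlecan tie the laminin network to collagen IV. In the interstitial matrix, fibronectin and fibrillin 1 form fibrils, while tenascin C and thrombospondin 1 are matricellular proteins, which change how cells adhere rather than bear load. Cells bind these proteins through integrins, dystroglycan and syndecans, and tumour cells use them as tracks for migration.

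The libraries held 24979081 and 24863313 counts on genes in the nanoparticle group, and 22252686 and 22456882 in the PBS group. Levels are given as CPM, the count of a gene scaled to a common library size. The mitochondrial share of counts was 0.371% and 0.512% in the nanoparticle libraries and 0.311% and 0.428% in the PBS libraries, so that the groups overlapped. Of the markers of H1299 or epithelial cells, KRT8, KRT18, VIM and CDH2 were expressed, while EPCAM, KRT19 and CDH1 stayed under 1 CPM in every library. KRT18 had 927 and 915 CPM in the nanoparticle libraries and 1019 and 1032 CPM in the PBS libraries (edgeR adjusted p = 0.000526), and KRT8 had 603 and 587 CPM with nanoparticles and 641 and 643 CPM with PBS (edgeR adjusted p = 0.0239). Both were thus lower with nanoparticles, and their part in the results was not tested. Fibroblasts are the main makers of interstitial matrix in tissue, and the 7 fibroblast markers summed to 1.60 and 1.45 CPM in the nanoparticle libraries and to 1.48 and 1.74 CPM in the PBS libraries. COL1A2, COL3A1 and LUM had at most 2 counts in any library. The 4 endothelial and 4 immune markers were each under 1 CPM in all libraries.

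TNC, NID2 and FBN1 were the members with the largest differences, and each was higher in both nanoparticle libraries than in both PBS libraries. All 10 members were abundant enough to be tested, and the lowest count was 360, for NID1 in PBS replicate 1. Both nanoparticle libraries lay above both PBS libraries for 7 of the 10, an order also found for 23.7% of all tested genes, and for none were both below, an order found for 23.2%. THBS1, LAMA5 and NID1 overlapped between the groups. In edgeR's quasi-likelihood fit across 15778 genes, with a threshold of 0.05 on the Benjamini-Hochberg adjusted p, TNC, NID2 and FBN1 lay past the threshold with higher values, where 2.58% of all tested genes lay past it and 1.75% did so with higher values. Nothing is read from that count, since the members were chosen on this comparison. FBN1 did not lie past the threshold once the trend with transcript length, described below, was removed. No member lay past the threshold when either PBS library was left out, when nanoparticle replicate 2 was left out, or by DESeq2's Wald test, and without nanoparticle replicate 1 NID2 did not. The median log2 fold change was 0.11 over the members and 0.00056 over all tested genes. RNA of whole cultures was measured, so more cells expressing a gene and more RNA per cell cannot be told apart.

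**Figure D1:**
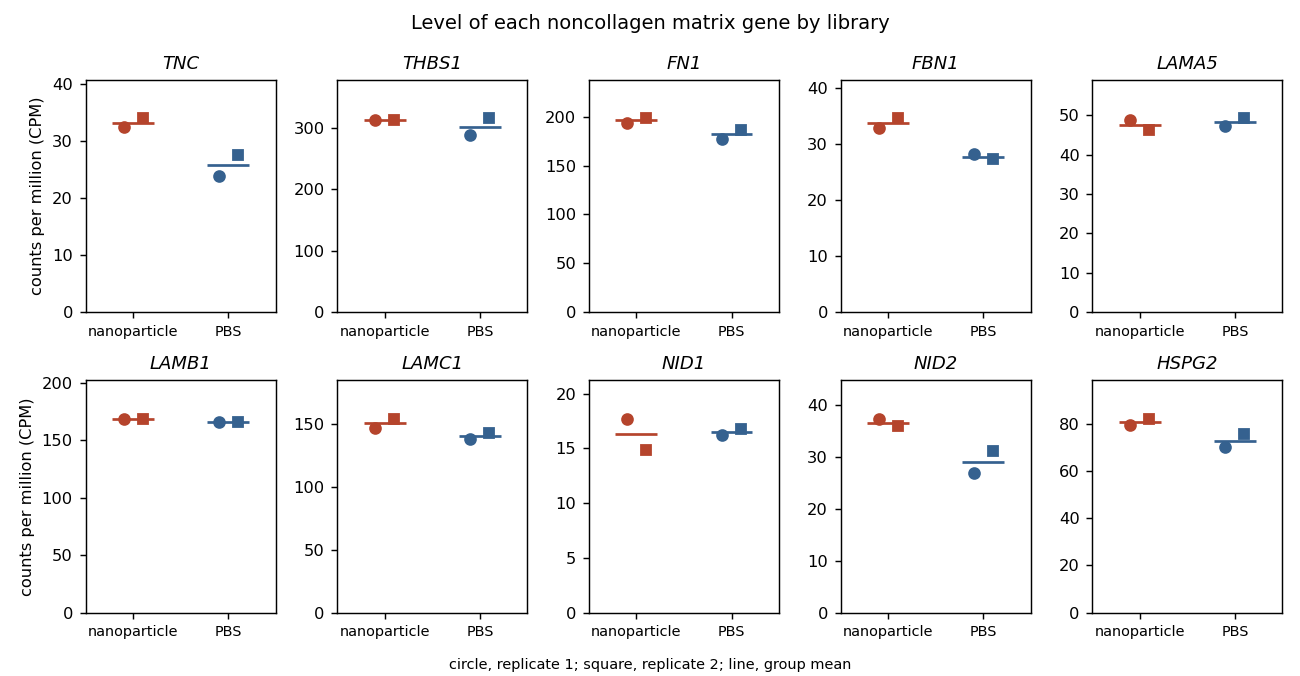
Level in CPM (vertical axis, from 0) of each of the 10 genes in the 2 nanoparticle libraries (left) and the 2 PBS libraries (right), with replicate 1 as a circle, replicate 2 as a square and the group mean as a line. TNC, FBN1 and NID2 show clear gaps between the groups, whereas LAMB1 lies at nearly one level in all libraries and NID1 overlaps.

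The start regions of these 3 genes are shown because they stood highest. That of NID1 is set beside them because it is the paralogue of NID2 and its groups overlapped. Each is the RefSeq promoter window on GRCh38.p14, on the minus strand, 5′ to 3′, from 250 bases before the start site to 50 after it. Capitals mark the GC box GGGCGG and the TEAD motif GGAATG, on either strand. TNC lies at chr9:115118108-115118407, FBN1 at chr15:48644921-48645220, NID2 at chr14:52069010-52069309 and NID1 at chr1:236065041-236065340.
TNC: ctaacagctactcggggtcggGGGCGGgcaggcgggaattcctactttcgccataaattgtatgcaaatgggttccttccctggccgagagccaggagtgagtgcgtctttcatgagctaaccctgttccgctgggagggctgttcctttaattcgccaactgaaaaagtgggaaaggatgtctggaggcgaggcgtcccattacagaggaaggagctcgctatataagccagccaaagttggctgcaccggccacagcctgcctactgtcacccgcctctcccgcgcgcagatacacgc
FBN1: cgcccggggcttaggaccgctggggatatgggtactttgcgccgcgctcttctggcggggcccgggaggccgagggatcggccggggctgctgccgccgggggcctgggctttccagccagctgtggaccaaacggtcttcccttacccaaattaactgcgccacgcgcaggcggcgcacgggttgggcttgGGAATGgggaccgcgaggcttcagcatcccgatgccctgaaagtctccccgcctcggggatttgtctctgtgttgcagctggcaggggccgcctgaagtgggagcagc
NID2: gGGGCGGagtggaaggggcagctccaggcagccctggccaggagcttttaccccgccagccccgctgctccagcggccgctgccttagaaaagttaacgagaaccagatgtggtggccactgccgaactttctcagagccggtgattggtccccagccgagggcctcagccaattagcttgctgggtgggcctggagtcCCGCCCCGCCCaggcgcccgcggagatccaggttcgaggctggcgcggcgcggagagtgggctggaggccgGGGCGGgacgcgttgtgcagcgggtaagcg
NID1: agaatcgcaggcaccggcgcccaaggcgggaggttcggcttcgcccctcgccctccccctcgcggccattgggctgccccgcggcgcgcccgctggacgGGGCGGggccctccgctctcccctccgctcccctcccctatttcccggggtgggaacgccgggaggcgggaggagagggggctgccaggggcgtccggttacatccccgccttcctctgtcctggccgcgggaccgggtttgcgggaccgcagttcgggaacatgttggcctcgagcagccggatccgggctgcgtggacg
All 10 members had such a window. The GC box, the letters bound by SP1-type factors, was present in 9 of the 10, all but FBN1, and in 45% of 35116 promoters. The TEAD motif, read by the transcription factors that partner YAP and TAZ, was present in FBN1, starting 58 bases before the start site, and in THBS1, starting 46 bases before it; 14% of all promoters held it. AP-1 (TGANTCA), the antioxidant response element (TGACNNNGC) and the E-box (CACGTG) were searched on both strands in the same windows. None of these letters occurred in the 10 windows, against 7.71%, 13.3% and 7.26% of all promoters. The TNC window had a GC content of 57.3%, the lowest of the 10, and that of HSPG2 the highest at 83.3%.

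The matricellular genes differed from each other. TNC encodes a hexameric glycoprotein known for its presence in tumour stroma and in healing wounds. It had 811 and 845 counts in the nanoparticle libraries and 532 and 615 in the PBS libraries. Scaled by depth these were 32.45 and 34.0 CPM with nanoparticles against 23.9 and 27.5 CPM with PBS. Both nanoparticle libraries were above both PBS libraries, and the PBS libraries were the less alike, 14.0% of their mean apart. The ratio of the means was 1.29 and the log2 fold change 0.37 with a standard error of 0.068, a larger value than for 96.5% of tested genes. Without PBS replicate 1 the log2 fold change of TNC was 0.27, and without PBS replicate 2 it was 0.47. THBS1, a trimeric protein that binds CD47 and activates latent TGF-beta, was the most abundant member. It had 314 and 313 CPM in the nanoparticle libraries and 288 and 316 CPM in the PBS libraries. The PBS replicates spanned the nanoparticle ones, and the log2 fold change was 0.053 with a standard error of 0.036. Its direction turned with the library left out, at -0.013 without PBS replicate 1 and 0.12 without PBS replicate 2. Per kb of transcript, THBS1 stood at 40.3 CPM with nanoparticles and 38.8 with PBS, and TNC at 4.35 and 3.37.

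The genes whose levels followed TNC most closely over the 4 libraries were CNTNAP3, FIGN and SEMA3C. They were chosen as the 3 closest of 10753 genes of at least 5 CPM by the root mean square difference of centred log2 CPM, which was 0.015, 0.022 and 0.038. SEMA3C, a secreted semaphorin, had 74.5 and 76.45 CPM in the nanoparticle libraries and 58.1 and 63.7 CPM in the PBS libraries. CNTNAP3 has near-identical gene copies, so its counts are uncertain. With so few libraries many genes can match a profile by chance.

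Among the fibril-forming genes, FBN1 stood apart from FN1. FBN1 encodes the backbone of microfibrils, which carry elastin and store TGF-beta. It had 822 and 859 counts in the nanoparticle libraries and 626 and 609 in the PBS libraries. These corresponded to 32.9 and 34.5 CPM with nanoparticles and 28.1 and 27.25 CPM with PBS. The gap between replicates was 4.865% of their mean with nanoparticles and 3.21% with PBS. The counting error of a single library was 4.05% at the lowest count, and the groups did not overlap. The ratio of the means was 1.22 and the log2 fold change 0.28 (SE 0.060). FN1, the ligand of integrin alpha5 beta1 and the scaffold for other matrix proteins, had 194 and 198 CPM in the nanoparticle libraries and 177 and 187 CPM in the PBS libraries. The ratio of its means was 1.08, and the gap between the PBS replicates was 5.28% of their mean. Per kb of transcript FN1 was at 24.9 CPM with nanoparticles and 23.0 with PBS, well above FBN1 at 2.87 and 2.35.

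The laminin chains showed small differences. LAMB1, the beta1 chain, had 168.5 and 169 CPM in the nanoparticle libraries and 166 CPM in each PBS library. The ratio of its means was 1.02 (log2 0.023, SE 0.033). LAMC1, the gamma1 chain found in most laminins, had 147 and 154 CPM in the nanoparticle libraries and 138 and 142 CPM in the PBS libraries, with no overlap. Its log2 fold change was 0.10 (SE 0.036). LAMA5, the alpha chain of laminin-511 and laminin-521 and a ligand of integrin alpha6 beta1, had 48.65 and 46.35 CPM in the nanoparticle libraries and 47.3 and 49.2 CPM in the PBS libraries. The groups of LAMA5 overlapped, at a log2 fold change of -0.023 (SE 0.051), which turned to 0.0042 without PBS replicate 2 and to 0.012 without nanoparticle replicate 2.

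Set beside the other laminin genes, the alpha chains were scarce. Summed over 5 alpha genes the level per kb of transcript was 7.44 ± 0.15 CPM with nanoparticles and 7.08 ± 0.32 with PBS (SD, n = 2 each). The 4 beta genes summed to 58.8 ± 0.34 with nanoparticles and 59.3 ± 0.20 with PBS (CPM per kb, SD, n = 2 each). LAMA5 supplied 55.9% of the alpha level with nanoparticles and 59.7% with PBS. LAMB1 supplied 50.0% of the beta level with nanoparticles and 48.9% with PBS. LAMC1 stood at 19.1 CPM per kb with nanoparticles and 17.7 with PBS. Of the 8 other laminin genes tested, none passed an adjusted p of 0.05 by edgeR, DESeq2 or limma-voom, with 1 higher and 1 lower at an unadjusted p under 0.05 in edgeR, as 16.8% of all tested genes were. Among them LAMB2 had 79.4 and 79.0 CPM in the nanoparticle libraries and 80.7 and 79.9 CPM in the PBS libraries (log2 -0.020, SE 0.040, edgeR adjusted p = 0.854).

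**Figure D2:**
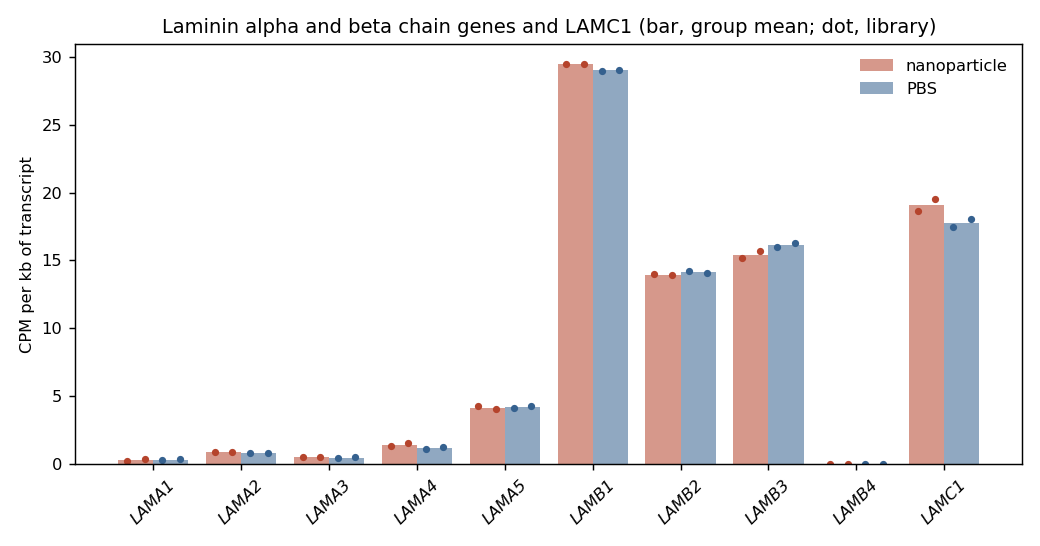
Level per kb of principal transcript (CPM per kb, from 0) of the 5 alpha and 4 beta laminin chain genes and of LAMC1, with bars for the group means (nanoparticle left, PBS right) and dots for the libraries. LAMB1 leads the beta chains, and the 5 alpha genes together reach 7.44 with nanoparticles and 7.08 with PBS.

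The linker genes of the basement membrane included the paralogous nidogens, whose fold changes were not tested against each other. Nidogens bridge the laminin gamma1 chain and collagen IV. NID2 had 934 and 896 counts in the nanoparticle libraries and 598 and 698 in the PBS libraries. These were 37.4 and 36.0 CPM with nanoparticles and 26.9 and 31.2 CPM with PBS. The nanoparticle libraries were both above the PBS libraries, whose gap was 15.0% of their mean. The ratio of the means was 1.26 and the log2 fold change 0.34 (SE 0.066), with 0.23 when PBS replicate 1 was left out and 0.45 when PBS replicate 2 was. NID1 had 442 and 370 counts in the nanoparticle libraries and 360 and 375 in the PBS libraries. At 17.7 and 14.9 CPM with nanoparticles against 16.2 and 16.8 CPM with PBS, the nanoparticle replicates lay on either side of the PBS ones. Its log2 fold change was -0.018 (SE 0.087), and the direction turned with the library left out, at 0.10 without nanoparticle replicate 2 and -0.15 without nanoparticle replicate 1. HSPG2, the core protein of perlecan, which carries heparan sulfate and binds growth factors, had 79.5 and 82.1 CPM in the nanoparticle libraries and 70.2 and 75.7 CPM in the PBS libraries. These groups did not overlap, and the log2 fold change was 0.15 (SE 0.044), with 0.093 when PBS replicate 1 was left out and 0.20 when PBS replicate 2 was.

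Exons of NID2 overlap those of RTRAF on the opposite strand over 1915 bases, 30% of the exon bases of NID2, and whether reads were counted by strand is not given in the sources used. RTRAF had 153 and 154 CPM in the nanoparticle libraries and 156 and 153 CPM in the PBS libraries (log2 -0.0063, SE 0.034). Exons of HSPG2 overlap those of LDLRAD2 over 2121 bases, 11.7% of the exon bases of HSPG2, and LDLRAD2 had at most 0.045 CPM in any library. For the other members no opposite-strand gene covered more than 4.89% of the exon bases.

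In GENCODE 29 on GRCh38, TNC lies on chromosome 9 from 115019578 to 115118257, NID2 on chromosome 14 from 52004803 to 52069228 and FBN1 on chromosome 15 from 48408306 to 48645849. All 3 are protein-coding genes on the minus strand, with 28, 22 and 66 exons in the principal transcript. THBS1 is on chromosome 15 as well, from 39581079 to 39599466 on the plus strand. The FBN1 promoter window printed above lies wholly within the GENCODE span of FBN1. Its motif content and positions therefore hold for the RefSeq start site, which is downstream of the GENCODE start.

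Across the members the PBS replicates differed in one direction. PBS replicate 1 was below PBS replicate 2 for 9 of the 10 members, all but FBN1, against 49.4% of all tested genes. The summed level of the 10 was 1072 and 1082 CPM in the nanoparticle libraries and 981 and 1039 CPM in the PBS libraries. The group means of this sum were 1077 ± 7.05 CPM with nanoparticles and 1010 ± 40.8 CPM with PBS (SD, n = 2 each). Without PBS replicate 1 the median log2 fold change of the members was 0.074, and without PBS replicate 2 it was 0.14.

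All 10 members have long transcripts, and fold change rose with transcript length over all genes. The principal transcripts ran from 4811 bases for NID2 to 14327 for HSPG2. With genes above 5 CPM ordered by length in 10 bins, 7 members fell in the longest bin, whose median log2 fold change was 0.082, against -0.063 in the shortest. The length trend between the groups at each member's length was 0.065 for TNC, 0.11 for FBN1 and 0.026 for NID2 (log2), and reached 0.13 for HSPG2. With the trend of each library removed, the log2 fold change of TNC was 0.30, that of NID2 0.31 and that of FBN1 0.18. For HSPG2 it was 0.019, for FN1 0.041, for LAMC1 0.036, for THBS1 -0.013, for LAMB1 -0.017, for NID1 -0.059 and for LAMA5 -0.13. The median over the members was then 0.028. With the length trend removed, TNC and NID2 still lay past the threshold by edgeR, and FBN1 did not (edgeR adjusted p = 0.177). GC content also differed, from 45.6% in the THBS1 transcript to 66.4% in that of LAMA5. With length and GC trends both removed, the median was 0.057, TNC had 0.32, NID2 0.32, FBN1 0.19 and LAMA5 -0.056. FBN1 did not lie past the threshold in that fit either (edgeR adjusted p = 0.113). The part of library preparation or RNA quality in the length trend was not tested.

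**Figure D3:**
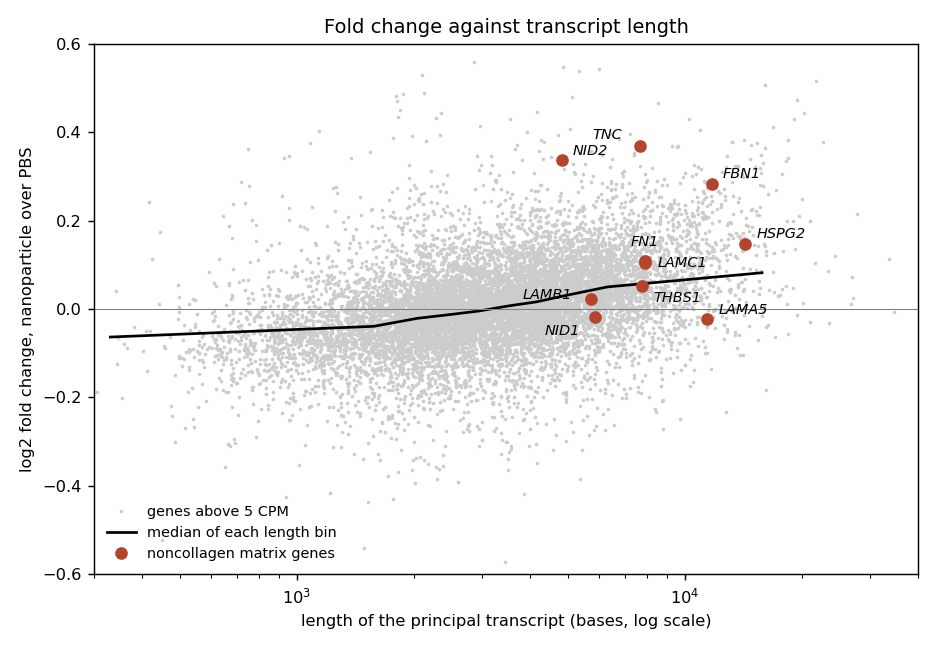
Log2 fold change of nanoparticle over PBS (vertical axis) against length of the principal transcript (bases, log scale) for genes above 5 CPM (grey), with the median of each of 10 length bins (line) and the 10 noncollagen matrix genes (red); genes beyond the axis limits are not drawn. The line runs from -0.063 to 0.082, and TNC (0.37), NID2 (0.34) and FBN1 (0.28) lie above it.

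**Figure D4:**
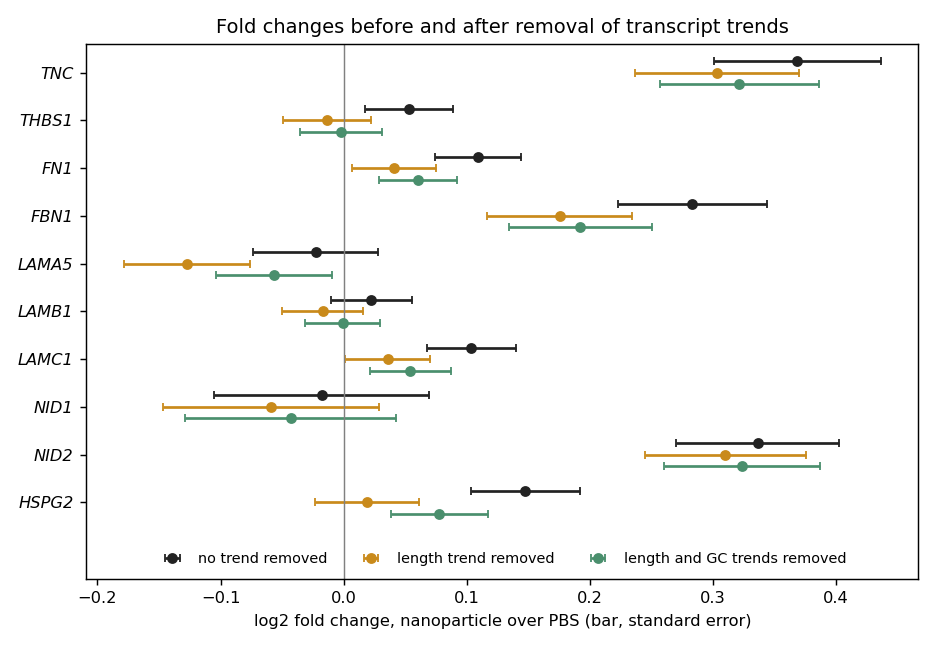
Log2 fold change of nanoparticle over PBS for each gene without correction (black), with the length trend removed (orange) and with length and GC trends removed (green); bars are standard errors. TNC and NID2 stay at 0.30 or above, while HSPG2 moves to 0.019 once the length trend is removed.

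The other genes of the same matrix, its receptors and its glycan enzymes, 120 in 6 lists, included 3 genes that passed the test, all lower. These were 3 of 85 tested, where 0.83% of all tested genes were called lower. The lists, like the members, were chosen with earlier results of these data known, so no excess is read from that count. None passed higher by edgeR, DESeq2 or limma-voom, with 9 higher and 13 lower at an unadjusted p under 0.05 in edgeR, a mark that 16.8% of all tested genes met. Over the 85 genes the median was -0.0070 on the log2 scale. None of the 3 passed without PBS replicate 1 or without PBS replicate 2.

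EFEMP2, also called fibulin 4, is needed for elastic fibre assembly, and it fell to 19.6 and 21.1 CPM in the nanoparticle libraries, against 24.6 and 26.7 CPM in the PBS libraries (log2 -0.34, SE 0.072, edgeR adjusted p = 0.0139). It was the gene that passed of 17 tested in the elastic fibre and microfibril list, whose median was -0.035. FBN2, the paralogue of FBN1, had 24.2 and 24.1 CPM in the nanoparticle libraries and 19.3 and 22.3 CPM in the PBS libraries (log2 0.22, SE 0.075, edgeR adjusted p = 0.132). The FBN2 groups did not overlap, and the gene did not pass. Without nanoparticle replicate 1 EFEMP2 had an edgeR adjusted p of 0.11, and without nanoparticle replicate 2 of 0.0634. By DESeq2 it was 0.193, and over all 15 alternatives it ran from 0.000297 to 0.544.

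CCN2, a matricellular growth factor also known as CTGF and a target of YAP, fell to 173 and 179 CPM in the nanoparticle libraries, against 189 and 202 CPM in the PBS libraries (log2 -0.15, SE 0.037, edgeR adjusted p = 0.0296). It was the gene that passed of 11 tested in the list of other matricellular and adhesive proteins, whose median was -0.12. The tenascins TNR and TNN and the thrombospondin THBS2 were too low to be tested, and TNR had no count in any library. THBS3 had 25.05 and 25.1 CPM in the nanoparticle libraries and 25.85 and 26.7 CPM in the PBS libraries (log2 -0.066, SE 0.064). With the length trend removed CCN2 had an edgeR adjusted p of 0.0913 (log2 -0.13), and by DESeq2 it was 0.141. Without nanoparticle replicate 1 it was 0.211 and without nanoparticle replicate 2 it was 0.176; over the 15 alternatives it ran from 0.00284 to 0.564.

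Among receptors, SDC4, the focal adhesion syndecan that binds fibronectin through its heparan sulfate, fell to 194.0 and 193.5 CPM in the nanoparticle libraries, against 226.5 and 215 CPM in the PBS libraries (log2 -0.19, SE 0.034, edgeR adjusted p = 0.00421). The nanoparticle replicates were almost equal and both were below the PBS replicates. It was the gene that passed of 22 tested receptors, whose median was -0.010, and it passed by DESeq2 too (adjusted p = 0.0063). Without nanoparticle replicate 2 it did not pass (edgeR adjusted p = 0.112), and over the 15 alternatives the adjusted p ran from 3.2e-05 to 0.544. Of the other basement membrane genes none of 11 passed by edgeR, DESeq2 or limma-voom. In edgeR 1 of them, higher, had an unadjusted p under 0.05, as did 16.8% of all tested genes. AGRN, the proteoglycan agrin, had 115 and 112 CPM in the nanoparticle libraries and 108 and 114 CPM in the PBS libraries, and FBLN1 had 62.0 and 58.8 CPM with nanoparticles and 61.3 and 61.2 CPM with PBS. Of the enzymes that add glycans to these proteins none of 16 passed by the same tools. In edgeR 3 of them, all higher, had an unadjusted p under 0.05, against that same share of 16.8%. NDST1, which sulfates heparan chains such as those of perlecan, had 186 and 190 CPM in the nanoparticle libraries and 186 and 188 CPM in the PBS libraries, and EXT1, which extends them, had 135 and 135 CPM with nanoparticles and 133 and 133 CPM with PBS.

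**Figure D5:**
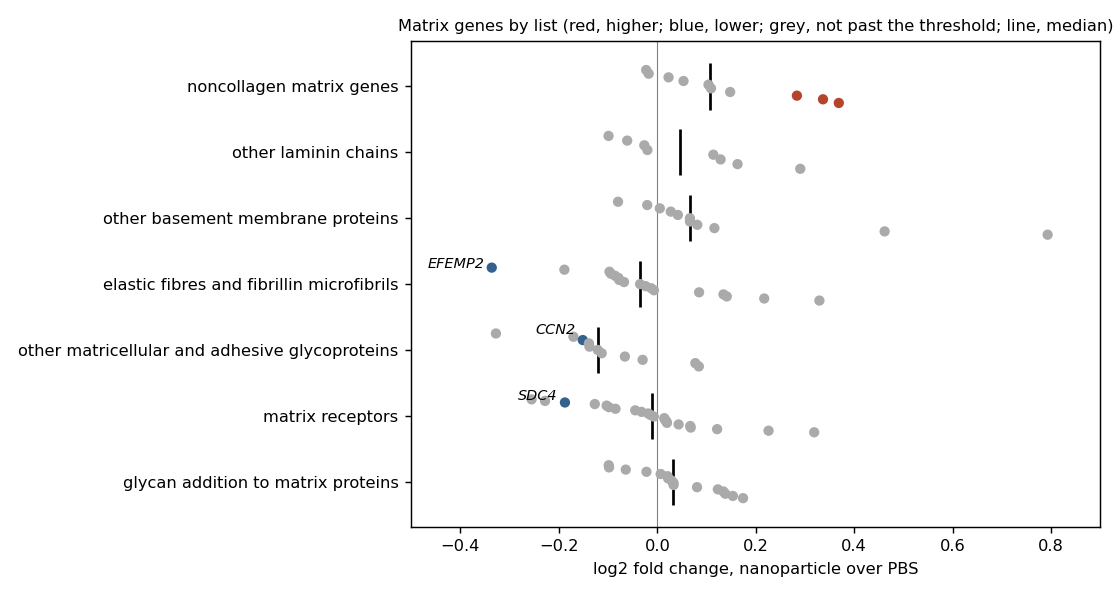
Log2 fold change of nanoparticle over PBS (horizontal axis) for the tested genes of each list, 1 dot per gene, with the list median as a line; red marks genes called higher, blue genes called lower and grey genes that did not pass. The 3 called genes outside the top row, EFEMP2, CCN2 and SDC4, all lie below 0.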

How the data were processed

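Each deposited file holds raw read counts per Ensembl gene for 1 library, without normalization. The submitters' processing notes name HTSeq 2.0.2, STAR 2.7.6a, cutadapt 3.5, bcl2fastq 2.20 and Picard, and GRCh38; the sources used here give neither the annotation release nor the strand setting. Rows of reads given to no gene (13.7% to 14.8% of reads) were left out. A gene name table gave symbols for 61369 rows and GENCODE 29 for 159. Transcript length and GC content, known for 98.2% of tested genes, are those of the principal GENCODE 29 transcript.

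Genes passing filterByExpr were tested with edgeR 4.0.16 (TMM, glmQLFit, glmQLFTest, two-sided, Benjamini-Hochberg, R 4.3.3); the biological coefficient of variation was 2.46%. Standard errors came from the coefficient and its F statistic. Chi-square per degree of freedom between replicates was 1.95 for nanoparticle and 1.78 for PBS libraries, so none was a copy. Counting error at the lowest count of a member was between 1.25% and 5.27%. Alternatives were other scalings and filters, DESeq2 1.42.0, limma-voom (limma 3.58.1), a replicate block, each library left out, and removal of length or length and GC trends (robust splines with 4 degrees of freedom, MASS 7.3.60.0.1, over genes above 5 CPM, as offsets). The fit was tested on simulated counts, which held no length trend, so that test does not bear on the calls made here.

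The members and lists were chosen with earlier results of these data known. The genes named are the members, up to 4 called genes per list (or the 2 most abundant where none was called) and the 3 genes closest to TNC; FBN2, THBS3, TNR, TNN and THBS2, relatives of members, were added after their values were seen. Some genes of the lists are not reported here. Figures were drawn with matplotlib 3.10.9.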

Additional observations from a re-analysis of the deposited data

How the results depend on the processing

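The number of genes past the threshold, 407 as reported (276 higher and 131 lower), was 0 without a low-count filter (edgeR, 2297 genes with an unadjusted p under 0.05 and adjusted p = 0.544 at the lowest), 90 by DESeq2, 200 with the length trend removed and 260 with length and GC trends removed. It was between 0 and 200 with a library left out. The 0 was reached without PBS replicate 1 (edgeR, 1562 genes at an unadjusted p under 0.05) and without PBS replicate 2 (1672 genes). Upper-quartile scaling gave 223 higher and 190 lower. Of the members, whose calls are a description, 3 lay past the threshold as reported, 0 without a low-count filter (edgeR, 6 at an unadjusted p under 0.05, as were 8.34% of all genes), 0 by DESeq2 (6 at an unadjusted p under 0.05, as were 5.97% of all genes) and between 0 and 2 with a library left out. Of the other matrix, receptor and glycan genes, 3 passed as reported, 0 without a low-count filter (13 at an unadjusted p under 0.05 in edgeR), 5 with a mean of at least 50 counts, 1 by DESeq2 and between 0 and 1 with a library left out; none of these was higher. With the length trend removed, or length and GC trends, 2 members lay past the threshold, TNC and NID2. The cause of these differences was not tested.

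Replicate numbers are shared between the groups, but the deviations of same-numbered libraries had a Pearson correlation of 0.049 over 8098 genes, so the numbers were not taken to pair them. With the replicate block 759 genes and 5 of the other matrix genes passed, and 4 members lay past the threshold, HSPG2 among them. With the block and length and GC trends removed, 120 genes passed and 2 members lay past the threshold. Over 15 alternatives TNC, FN1, FBN1, NID2, LAMC1 and HSPG2 had log2 fold changes above 0 in each, from 0.27 to 0.47 for TNC, 0.23 to 0.45 for NID2 and 0.18 to 0.32 for FBN1. THBS1 was above 0 in 11, LAMB1 in 12, NID1 in 2 and LAMA5 in 2. At 360 counts NID1 was the member whose depth allowed the least precision.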
